A study of Homo sapiens with 20 samples.

Results

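The comparison described here sets a melanoma line that overexpresses NME1 with the E5A substitution against a line of the same origin that overexpresses wild-type NME1. Both were made from WM793, an established human cell line from a vertical growth phase melanoma, which is the stage at which a melanoma has begun to invade the dermis. The 8 arrays were chosen by their titles, 4 of NME1-E5A and 4 of NME1-wild-type, out of 20 arrays and 5 lines in the series. The other lines were NME1-K12Q and NME1-P96S, which overexpress other mutant forms of NME1, and Parent, the WM793 line without a construct, each with 4 arrays. All lines shared the WM793 background, the growth medium and the RNA protocol given in the labels. The study's question was which transcripts mark NME1 acting as a suppressor of metastasis.

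Expression was measured on Affymetrix human exon arrays, and each value is a log2 level in 1 of 18708 rows, each the summary of a transcript cluster. The arrays of a line are described as technical replicates, and there is a single line per construct, so every p-value below measures the spread between arrays and not between separately made lines. Whether a line was 1 clone or a pool, and which promoter drove the construct, was not given in the sources used here.

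NME1 is a nucleoside diphosphate kinase, an enzyme that passes phosphate between nucleotides, and it was among the earliest genes described as a suppressor of metastasis. It can also phosphorylate histidine in proteins and trim the ends of DNA as an exonuclease. The E5A substitution replaces a glutamate near the amino terminus with alanine and is known to impair the exonuclease activity, so the comparison shows which transcripts differed between a line with that residue changed and a line with it intact.

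The arrays of both lines were alike as a whole. Over all rows, Pearson's r was 0.987 to 0.994 among NME1-E5A arrays, 0.983 to 0.995 among NME1-wild-type arrays and 0.982 to 0.994 from one line to the other. Medians of the 8 arrays lay between 6.31 and 6.42. Once the line means were removed, the first principal component of the 20 arrays held 63% of the remaining variance. Its extremes were NME1-P96S replicate 3, at 66 (interquartile range 2.33), and Parent replicate 4, at -47.6 (3.07). These arrays also enter the estimate of spread used below. The 8 arrays compared lay between -9.5 and 12.5. The second component, with 13.5% of the remaining variance, split the 20 arrays into a set of 7 and a set of 13. The set of 7 holds NME1-E5A replicate 1 and NME1-wild-type replicates 1 and 2, and the set of 13 holds the other arrays of both lines. No label names a batch behind these sets, and values within each are given below.

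The gene of the constructs was examined first. NME1 was measured by a row that is annotated to NME1 and to the NME1-NME2 readthrough transcript. Its log2 level was 9.69, 9.77, 9.94 and 9.72 on the NME1-E5A arrays, against 9.81, 9.86, 9.83 and 9.75 on the NME1-wild-type arrays. The groups overlapped, and a single NME1-E5A array lay above the highest NME1-wild-type array. The log2 difference was -0.03 (95% interval -0.28 to 0.22; exact two-sided permutation p = 0.657, where 4 against 4 arrays can give no p under 0.0286; limma adjusted p = 1.00). Set against Parent, the row differed by 0.26 in NME1-E5A and by 0.28 in NME1-wild-type, and neither passed (limma adjusted p = 1.00 and 0.997), so the overexpression given in the labels was not called on this row. The row reads whatever NME1 transcript its probes match, so it cannot tell the construct from the endogenous gene, nor E5A from wild-type sequence. Whether the probes match the construct cannot be told from these values.

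The other members of the family, which are further nucleoside diphosphate kinases and related proteins, did not pass a test either. The row of NME2, the closest relative of NME1, had log2 levels of 10.42, 10.41, 10.58 and 10.49 in NME1-E5A and 10.71, 10.66, 10.46 and 10.54 in NME1-wild-type, a difference of -0.12 (exact two-sided permutation p = 0.171). It shares the NME1-NME2 readthrough transcript with the NME1 row. NME6 differed by -0.19 (exact p = 0.171) and NME3 by -0.13 (exact p = 0.371). NME4, the mitochondrial member, differed by -0.05 (exact p = 0.743), and NME5, NME8 and NME9 by 0.10, 0.05 and -0.02 (exact p = 0.457, 0.686 and 0.714). The NME1 and NME2 rows thus showed no difference between the lines beyond the spread of the arrays, as the plot of both rows shows. Since the overexpression was not called on the NME1 row, this row cannot show whether the 2 forms of NME1 were present at like levels.

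**Figure D1:**
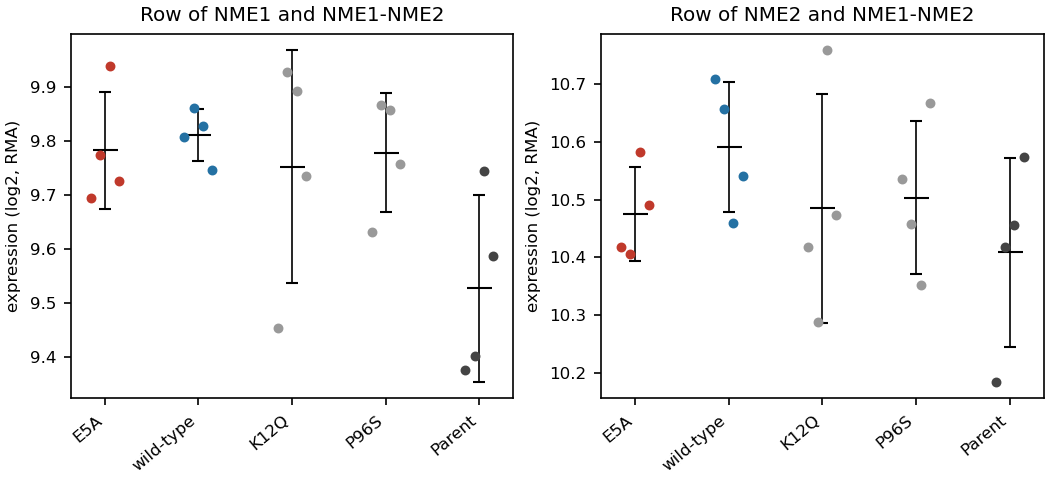
Log2 level (RMA) of the row of NME1 and NME1-NME2 and of the row of NME2 and NME1-NME2 on each array of the 5 lines; points are arrays, long bars are means and whiskers are 1 SD (n = 4). In the NME1 row the NME1-E5A arrays, at 9.69 to 9.94, span the NME1-wild-type arrays, at 9.75 to 9.86.

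Across the array, few transcripts separated the lines. A row was counted as changed when limma gave a Benjamini-Hochberg adjusted p under 0.05 over all rows and a fold of at least 1.5. By this rule 38 of 18708 rows changed (0.203%), 19 higher in NME1-E5A (0.102%) and 19 lower (0.102%). A single gene is annotated to 27 of them, 14 higher and 13 lower. Of the other rows, 5 higher and 4 lower are annotated to several genes, and 2 lower are not listed. The typical row hardly moved, with a median log2 difference of -0.01 and the central 95% of rows between -0.31 and 0.26.

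Of the 13 rows with a fold of at least 2, 4 were higher and 9 lower in NME1-E5A, and 4 of the 9 are rows of near-identical XAGE1 copies. At an unadjusted p under 0.05 there were 449 rows, fewer than the 935 that 5% of all rows would make. This count varied with the fit. It was 443 after median centring and 912 with only the 8 arrays. With the interquartile range as a covariate it was 1228, and with array weights 1306. The smallest difference among the changed rows was 0.59 and their largest adjusted p was 0.0484. A single row passed on adjusted p with a fold just too small, at 0.57. Among the other rows with a fold of at least 1.5, the smallest adjusted p was 0.0628.

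In each of the 38 changed rows all 4 NME1-E5A arrays lay on one side of all 4 NME1-wild-type arrays, which was also true of 3.29% of all rows. The number of changed rows leaned on every array but NME1-wild-type replicate 4. Without that array 35 rows changed, and without any other single array of the 2 lines between 16 (NME1-E5A replicate 3) and 25 (NME1-wild-type replicate 1).

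**Figure D2:**
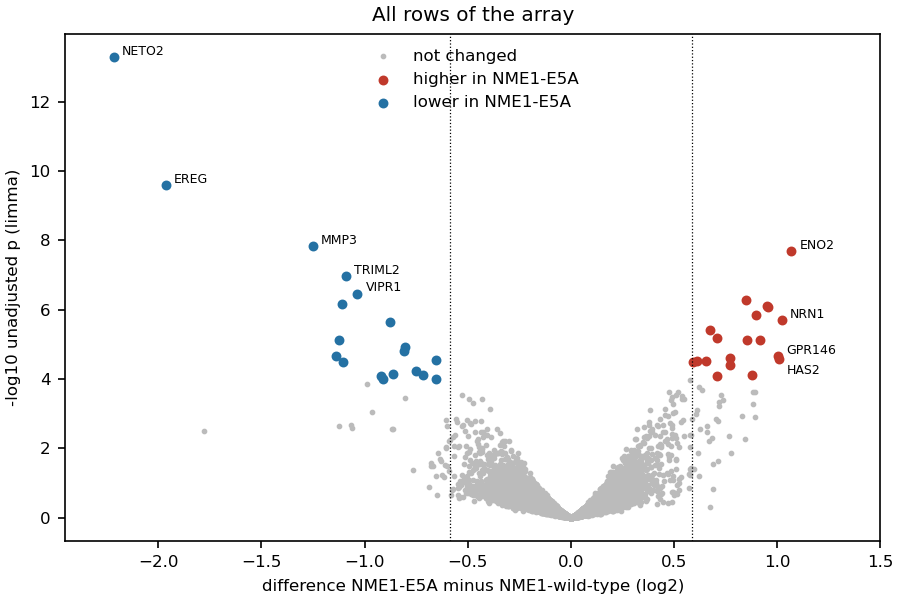
Each point is 1 of 18708 rows, placed by its log2 difference NME1-E5A minus NME1-wild-type (x axis) and by -log10 of its unadjusted limma p (y axis); dotted lines mark a fold of 1.5, and genes with an absolute log2 difference over 1 are named. NETO2 and EREG lie far to the left, at -2.22 and -1.96, and the largest increase, ENO2, lies at 1.07.

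Genes that were lower in NME1-E5A were led by NETO2 and EREG, which encode a receptor subunit and a growth factor. NETO2 is an auxiliary subunit of kainate receptors, the glutamate-gated channels. Its log2 level was 4.46, 4.57, 4.35 and 4.60 in NME1-E5A, against 6.62, 6.47, 6.79 and 6.96 in NME1-wild-type. The groups stood far apart, and the log2 difference of -2.22 (SE 0.118; limma adjusted p = 9.56e-10), a 4.65-fold lower level, was the largest of the changed rows. The arrays of the other 3 lines lay between them, at 5.60 to 5.75 in NME1-K12Q, 5.24 to 5.64 in NME1-P96S and 5.54 to 5.68 in Parent. NETO2 stood well below the median of each NME1-E5A array, so its level there rests on weak signal. Against Parent, NETO2 fell by 1.11 in NME1-E5A (limma adjusted p = 7.0e-05) and rose by 1.11 in NME1-wild-type (limma adjusted p = 9.7e-05), so that the lines moved to opposite sides of the line they came from.

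Of the 7 genes of the kainate receptor complex that were measured, NETO2 alone changed. GRIK2, a channel subunit, differed by 0.26 and GRIK5 by -0.06. NETO1, the other auxiliary subunit, differed by 0.08 and had a mean level of 3.42 in NME1-E5A and 3.34 in NME1-wild-type, and is named here after its values were seen. The median difference over the complex was 0.01. NETO2 also belongs to a list of genes reported elsewhere as lower with NME1. Of its 9 measured genes, 0 were higher in NME1-E5A and NETO2 was the only one lower there, with MMP2 at 0.16 and CCN2 at -0.37. The direction of NETO2 was opposite to that reported for the list, since it was 1.11 higher in NME1-wild-type than in Parent.

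EREG encodes epiregulin, a ligand of the EGF family that activates EGFR and ERBB4. Its log2 level was 6.04, 5.89, 5.83 and 6.13 in NME1-E5A, against 8.05, 8.25, 7.67 and 7.79 in NME1-wild-type. Every NME1-E5A array was at least 1 log2 unit below every NME1-wild-type array, and the difference was -1.96 (SE 0.168; 3.90-fold lower; limma adjusted p = 2.34e-06). The NME1-P96S arrays, at 5.96 to 6.76, reached down among those of NME1-E5A, while those of NME1-K12Q, at 7.45 to 7.77, reached up among those of NME1-wild-type. The Parent arrays lay in between, at 6.86 to 7.31. EREG differed from Parent by -1.08 in NME1-E5A and by 0.88 in NME1-wild-type, where the second value did not pass (limma adjusted p = 0.0912).

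Among the 13 measured EGF ligands and ERBB receptors, EREG was the only member that changed, and the median difference was -0.02. The receptors ERBB3 and ERBB2 differed by 0.31 and 0.09. The ligands TGFA and NRG1, named after their values were seen, had groups of arrays that did not overlap but did not pass, at 0.52 (limma adjusted p = 0.0976) and -0.39 (limma adjusted p = 0.208).

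Matrix metalloproteinases moved in both directions. MMP3, stromelysin, which degrades proteoglycans and activates other metalloproteinases, had log2 levels of 5.38, 5.27, 5.19 and 5.16 in NME1-E5A, against 6.80, 6.46, 6.33 and 6.40 in NME1-wild-type. Its difference was -1.25 (SE 0.136; 2.38-fold lower; limma adjusted p = 9.09e-05), and the NME1-E5A arrays were the lowest of all 20. The NME1-K12Q arrays, at 6.45 to 6.88, overlapped those of NME1-wild-type, and the Parent arrays stood at 5.73 to 5.94. MMP9, a gelatinase that degrades basement membrane collagen, went the other way, with 6.95, 6.82, 6.95 and 7.10 in NME1-E5A and 6.32, 6.27, 6.08 and 6.31 in NME1-wild-type, a difference of 0.71 (limma adjusted p = 0.0434). The call of MMP9 ended when any single array of the 2 lines was left out, with differences of 0.65 to 0.75, and also with the set of arrays as a block (limma adjusted p = 0.0529). Of 29 measured proteases and inhibitors these were the only changed members, and MMP1 and MMP2 differed by -0.33 and 0.16 without passing.

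TRIML2 and the XAGE1 rows were set apart in NME1-wild-type and not in NME1-E5A. TRIML2, a tripartite motif family protein counted among p53 targets, had log2 levels of 6.82, 6.85, 6.77 and 6.52 in NME1-E5A, against 8.20, 7.84, 7.68 and 7.61 in NME1-wild-type, a difference of -1.09 (SE 0.134; limma adjusted p = 0.000393). The NME1-E5A arrays lay among those of NME1-K12Q, at 6.44 to 6.91, and overlapped those of Parent, at 6.34 to 6.60. Against Parent, TRIML2 differed by 0.26 in NME1-E5A and rose by 1.35 in NME1-wild-type. It was the only changed gene of 19 measured p53 targets, of which TNFRSF10B and BAX differed by -0.01 and -0.16.

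The 4 XAGE1 rows are annotated to several near-identical copies of this cancer-testis antigen and cannot be assigned to 1 of them. Their NME1-E5A arrays lay between 5.64 and 6.46, against 6.67 to 7.86 in NME1-wild-type, with no overlap within a row. The differences were -1.10, -1.11, -1.12 and -1.14 (limma adjusted p = 0.0211, 0.00155, 0.00803 and 0.0190). Against Parent the rows differed by -0.08, 0.03, 0.20 and 0.08 in NME1-E5A and by 1.02, 1.14, 1.33 and 1.22 in NME1-wild-type. In NME1-wild-type the limma adjusted p were 0.142, 0.00308, 0.00369 and 0.0298, so the first row did not pass. MAGEA1, a cancer-testis antigen of another family whose probes may also match its relatives, had 4.83, 4.97, 4.94 and 4.94 in NME1-E5A and 5.95, 6.02, 5.70 and 5.65 in NME1-wild-type, a difference of -0.91 (limma adjusted p = 0.0484). Its call ended without any single array, with differences of -0.97 to -0.85, and also with the set of arrays as a block (limma adjusted p = 0.0772). Among the 9 cancer-testis antigens with a row of their own it was the only changed member, and MAGED1 and MAGED2 differed by 0.00 and 0.15.

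VIPR1, LRP1B, ACKR4 and MRGPRX4 encode receptors and were also lower in NME1-E5A. VIPR1, a receptor for vasoactive intestinal peptide and PACAP, had log2 levels of 7.41, 7.47, 7.41 and 7.27 in NME1-E5A, against 8.23, 8.45, 8.50 and 8.53 in NME1-wild-type. The difference was -1.04 (SE 0.138; limma adjusted p = 0.00107), and here NME1-E5A was the line that stood apart, since the arrays of the other 3 lines lay at 8.31 to 8.93. VIPR2 and ADCYAP1R1, the related receptors, differed by -0.02 and -0.08.

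LRP1B, a very large endocytic receptor of the low-density lipoprotein receptor family, had 3.71, 3.81, 3.63 and 3.74 in NME1-E5A and 4.51, 4.60, 4.60 and 4.41 in NME1-wild-type. Its difference was -0.81 (limma adjusted p = 0.0142), and the call ended without replicate 1 or 3 of NME1-E5A or 2 or 3 of NME1-wild-type (differences of -0.85 to -0.78 over all arrays left out). ACKR4, a scavenging chemokine receptor, had 4.50, 4.00, 3.98 and 4.03 in NME1-E5A and 5.07, 5.11, 4.71 and 4.63 in NME1-wild-type, a difference of -0.75 (limma adjusted p = 0.0365). Both LRP1B and ACKR4 stood low for these arrays, whose medians lay between 6.31 and 6.42, so their calls rest on weak signal. Of the 27 single genes, 16 had rows above the median level over all arrays. Besides LRP1B and ACKR4, those that did not were NETO2, MMP3, HAS2, GPR146, BEND5, B4GALT6, RNF122, MAGEA1 and SPP1. For LRP1B the arrays of NME1-K12Q, NME1-P96S and Parent lay at 3.44 to 4.10. Against Parent, LRP1B differed by 0.74 in NME1-wild-type and did not pass (limma adjusted p = 0.0956). MRGPRX4, a receptor of the Mas-related family of sensory neurons, had 6.46, 5.77, 5.88 and 6.02 in NME1-E5A and 7.22, 6.88, 6.69 and 6.79 in NME1-wild-type, a difference of -0.86 (limma adjusted p = 0.0410). ACKR4 kept its call only without replicate 1 of NME1-E5A or 4 of NME1-wild-type (differences of -0.87 to -0.67 over the 8 arrays left out), and MRGPRX4 only without NME1-E5A replicate 1 (-1.01 to -0.76).

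Secreted factors and enzymes completed the single-gene decreases. GDA, guanine deaminase, which converts guanine to xanthine, had log2 levels of 6.13, 6.19, 6.33 and 6.38 in NME1-E5A, against 7.07, 7.09, 7.24 and 7.15 in NME1-wild-type, a difference of -0.88 (SE 0.134; limma adjusted p = 0.00333). BMP2, a ligand of the TGF-beta family, had 7.67, 7.93, 7.76 and 8.06 in NME1-E5A and 8.56, 8.54, 8.69 and 8.86 in NME1-wild-type, a difference of -0.81 (limma adjusted p = 0.0118). It was the only changed gene of 22 measured in that family and among its targets, where TGFBI and SMAD3 differed by 0.10 and -0.03. SPP1, osteopontin, a secreted matrix phosphoprotein that binds integrins, had 5.87, 5.48, 5.48 and 5.41 in NME1-E5A and 6.73, 6.95, 6.02 and 6.22 in NME1-wild-type, a difference of -0.92 (limma adjusted p = 0.0434). ST6GALNAC5, a sialyltransferase of gangliosides, differed by -0.66 (limma adjusted p = 0.0206), with NME1-E5A arrays from 7.26 to 7.66 and NME1-wild-type arrays from 7.90 to 8.36.

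GDA kept its call without each of the arrays, which the other 3 did not. BMP2 lost it without NME1-E5A replicate 1 or 3 (-0.87 to -0.74 over the 8 arrays left out) and after quantile normalisation (limma adjusted p = 0.0867). SPP1 lost it without replicate 2, 3 or 4 of NME1-E5A or 1 or 2 of NME1-wild-type (-1.07 to -0.77), and after quantile normalisation (limma adjusted p = 0.166). ST6GALNAC5 lost it without replicate 2 or 3 of NME1-E5A or 1 or 2 of NME1-wild-type (-0.73 to -0.58).

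**Figure D3:**
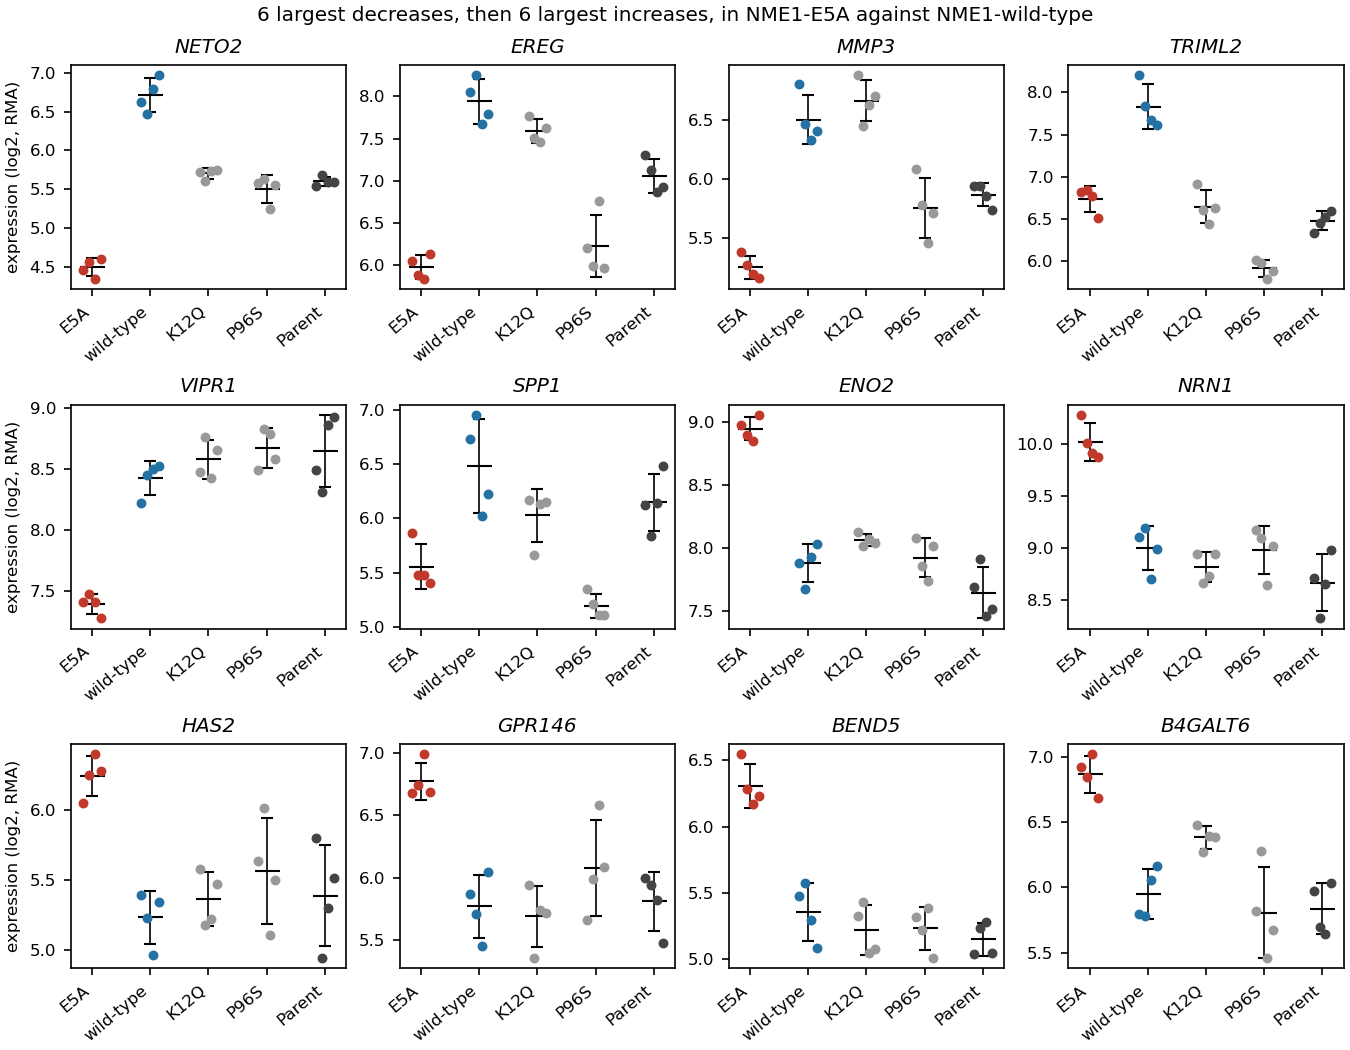
Log2 level (RMA) on each array of the 5 lines for the 6 single-gene rows that fell most and the 6 that rose most in NME1-E5A against NME1-wild-type; points are arrays, long bars are means and whiskers are 1 SD (n = 4), and each panel has its own y axis. In NETO2 the other 3 lines lie between NME1-E5A and NME1-wild-type, and in TRIML2 the NME1-wild-type arrays stand alone. In VIPR1 and the 6 increases the NME1-E5A arrays do not overlap those of any other line. In HAS2 the gap is narrow, with an NME1-P96S array at 6.02 and the lowest NME1-E5A array at 6.05.

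Genes that were higher in NME1-E5A included enzymes of sugar breakdown and a lipoprotein receptor, all of which are known to respond to low oxygen. ENO2 encodes gamma-enolase, the neuronal form of the glycolytic enzyme that makes phosphoenolpyruvate. Its log2 level was 8.98, 8.90, 8.85 and 9.06 in NME1-E5A, against 7.88, 7.68, 7.93 and 8.04 in NME1-wild-type. The difference of 1.07 (SE 0.118; 2.10-fold; limma adjusted p = 9.26e-05) was the largest increase, and the arrays of the other 3 lines lay between 7.46 and 8.13.

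PFKFB4 encodes an enzyme that sets the level of fructose 2,6-bisphosphate, an activator of glycolysis. It had 8.60, 8.58, 8.66 and 8.79 in NME1-E5A and 7.81, 7.36, 7.81 and 8.15 in NME1-wild-type, a difference of 0.88 (SE 0.176; limma adjusted p = 0.0410). The call ended without any single array but NME1-wild-type replicate 4, with differences of 0.74 to 1.00, and also with the set of arrays as a block (limma adjusted p = 0.0529) or after median centring (limma adjusted p = 0.0836). VLDLR, the very-low-density lipoprotein receptor, had 7.60, 7.72, 7.70 and 7.65 in NME1-E5A and 6.63, 6.81, 6.79 and 6.85 in NME1-wild-type, a difference of 0.90 (SE 0.132; limma adjusted p = 0.00238). The arrays of ENO2 and VLDLR were tightly grouped within each line, and both kept their calls without each of the 8 arrays in turn.

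Cells that lack oxygen stabilise the hypoxia-inducible factors, which bind DNA at a core of A or G followed by CGTG and raise the transcription of glycolytic enzymes, glucose transporters and angiogenic factors. The promoters of the 3 genes are shown because they are the changed members of the glycolysis and hypoxia lists described next. Each run covers 250 bases before the RefSeq transcription start and 50 from it (build GRCh38.p14), 5′ to 3′ on the strand of the gene, and capitals mark ACGTG, the form of the core that was searched, on both strands (CACGT on the strand shown).
ENO2, chr12:6914330-6914629, + strand: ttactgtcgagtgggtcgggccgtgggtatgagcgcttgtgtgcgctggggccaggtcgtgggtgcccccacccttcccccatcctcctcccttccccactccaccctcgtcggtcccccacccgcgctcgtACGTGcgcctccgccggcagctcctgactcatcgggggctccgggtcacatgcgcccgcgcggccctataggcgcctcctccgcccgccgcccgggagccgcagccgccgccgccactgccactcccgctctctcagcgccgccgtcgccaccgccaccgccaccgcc
PFKFB4, chr3:48556754-48557053, - strand: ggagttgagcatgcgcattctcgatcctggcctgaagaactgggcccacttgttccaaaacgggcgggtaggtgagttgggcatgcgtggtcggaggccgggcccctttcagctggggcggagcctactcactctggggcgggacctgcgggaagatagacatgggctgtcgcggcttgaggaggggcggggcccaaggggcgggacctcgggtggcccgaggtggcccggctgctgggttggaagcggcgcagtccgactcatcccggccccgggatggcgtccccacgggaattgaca
VLDLR, chr9:2621537-2621836, + strand: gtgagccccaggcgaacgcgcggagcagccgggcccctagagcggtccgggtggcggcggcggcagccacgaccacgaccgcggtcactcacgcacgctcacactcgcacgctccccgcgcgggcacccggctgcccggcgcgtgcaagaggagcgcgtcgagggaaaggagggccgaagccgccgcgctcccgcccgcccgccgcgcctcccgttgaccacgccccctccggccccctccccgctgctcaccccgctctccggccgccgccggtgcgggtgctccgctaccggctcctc
The ENO2 window holds 1 match, at -118 from the start, and the windows of PFKFB4 and VLDLR hold 0. The other form, GCGTG, was counted after these values were seen and is not in capitals. On either strand it occurred 0 times in the ENO2 window, 1 time in that of PFKFB4 and 5 times in that of VLDLR, and 36.5% of all promoters held it. A match is a run of letters and not a bound site, and the letters can also lie outside the window. Over all 35116 promoters of the table, 7518 held ACGTG (21.4%), as did 23.0% of the promoters of genes with a row of their own. Of the promoters of the hypoxia list, 16 of 30 held them (53.3%, from 22 of 26 genes that matched the table), and of the glycolysis list 19 of 46 (41.3%, from 24 of 25 genes). These shares are descriptions without a test. The lists group genes by known function, so the shares describe the lists and do not bear on the differences measured here.

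The glycolysis list, which runs from glucose uptake to lactate, had 25 measured genes. ENO2 and PFKFB4 rose, 0 fell and 23 did not pass. In 22 of the 25 the difference was positive, with a median of 0.23 against -0.01 over all rows. In 9 the NME1-E5A arrays all lay above the NME1-wild-type arrays, against 3.29% of all rows with no overlap in either direction. GAPDH, a standard reference transcript, differed by 0.11, and ENO1, the ubiquitous enolase, by 0.23. Named after their values were seen, PDK1, which holds pyruvate back from the mitochondria, differed by 0.88 (limma adjusted p = 0.163) and ALDOC, the aldolase of neural tissue, by 0.62 (limma adjusted p = 0.0788). Neither passed here, while PDK1 passed in 5 and ALDOC in 10 of the 26 alternative settings. LDHB, PDHA1 and PDHB were the 3 negative members.

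Genes of the hypoxia response outside glycolysis had 26 measured members. VLDLR was the only one that rose, 0 fell and 25 did not pass, yet 25 of the 26 differences were positive. Their median was 0.49, and in 16 members the NME1-E5A arrays all lay above those of NME1-wild-type, against 3.29% of all rows with no overlap in either direction. NDRG1, a stress-responsive gene, and BNIP3, a mitophagy receptor, did not pass, at 0.49 (limma adjusted p = 0.118) and 0.60 (limma adjusted p = 0.264). Chosen after their values were seen, INSIG2, which retains the sterol sensor SCAP in the endoplasmic reticulum, differed by 0.88 (limma adjusted p = 0.0976), ERO1A, an oxidase of that compartment, by 0.74 (limma adjusted p = 0.132) and P4HA1, a collagen prolyl hydroxylase, by 0.77 (limma adjusted p = 1.00). EGLN3, an oxygen-sensing hydroxylase, was the single negative member, at -0.09.

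Parent lay close to NME1-wild-type on these lists. Against Parent the median of the hypoxia list was 0.59 in NME1-E5A and 0.05 in NME1-wild-type, and that of the glycolysis list was 0.34 in NME1-E5A and 0.10 in NME1-wild-type. Both comparisons use the same Parent arrays. The sensors and subunits themselves gave 0 changed genes of 12, with a median of -0.01, and HIF1A, the oxygen-regulated subunit, and CITED2 differed by -0.09 and 0.25.

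**Figure D4:**
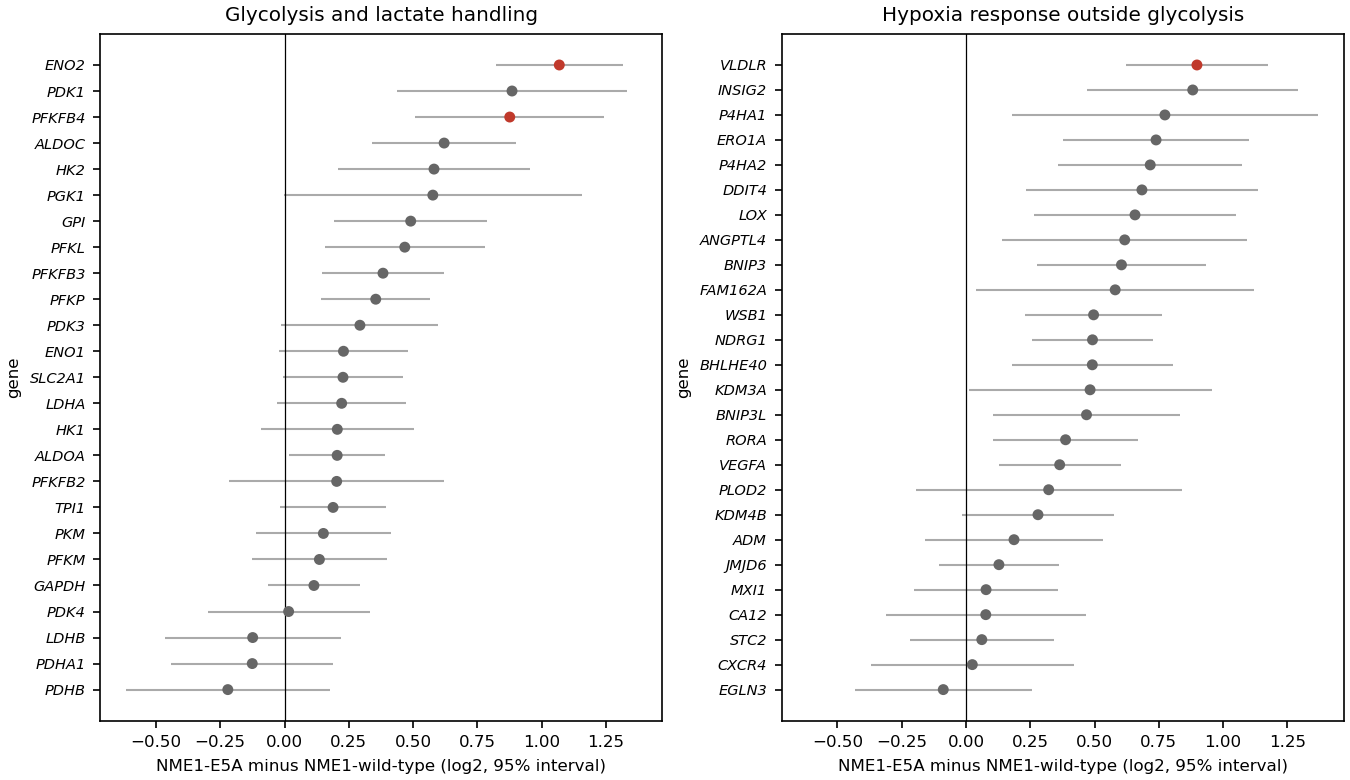
Log2 difference NME1-E5A minus NME1-wild-type (x axis) for each measured gene of the glycolysis list (25 genes) and of the hypoxia response outside glycolysis (26 genes), with 95% limma intervals; red points passed the rule for a changed row. Nearly all points lie right of 0, with medians of 0.23 and 0.49, and ENO2, PFKFB4 and VLDLR are the 3 that passed.

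A pair of rows annotated to both SLC2A3 and SLC2A14, which encode closely related glucose transporters, was also higher in NME1-E5A. Row 3442854 had log2 levels of 7.81, 7.78, 7.91 and 7.997 in NME1-E5A, against 6.97, 6.74, 7.13 and 7.27 in NME1-wild-type, a difference of 0.85 (limma adjusted p = 0.00139). Row 3442812 differed by 0.59 (limma adjusted p = 0.0211). Because probes can match either gene, the rows were counted in no list.

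NRN1, GPR146, ITGA9 and TMEM255A were also higher in NME1-E5A. NRN1, neuritin, a membrane-anchored factor that promotes neurite growth, had 10.28, 10.01, 9.91 and 9.88 in NME1-E5A, against 9.10, 9.20, 8.70 and 8.99 in NME1-wild-type, a difference of 1.02 (SE 0.154; limma adjusted p = 0.00310). The arrays of the other 3 lines lay below those of NME1-E5A, at 8.32 to 9.18. Among the 8 measured neurotrophins, related factors and receptors it was the only changed member, with GFRA1 and NGFR at 0.20 and 0.22. GPR146, a G protein-coupled receptor linked to cholesterol metabolism, had 6.68, 6.75, 6.99 and 6.68 in NME1-E5A and 5.87, 5.71, 5.45 and 6.05 in NME1-wild-type, a difference of 1.00 (limma adjusted p = 0.0188). Its call ended without replicate 2 or 3 of NME1-E5A or 2 or 3 of NME1-wild-type (0.90 to 1.09 over the 8 arrays left out).

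ITGA9, an integrin subunit for tenascin and osteopontin, had 7.34, 7.52, 7.46 and 7.31 in NME1-E5A and 6.64, 6.70, 6.71 and 6.74 in NME1-wild-type, a difference of 0.71 (SE 0.117; limma adjusted p = 0.00803). It was the only changed gene of 18 measured integrins, and ITGA6 and ITGB8 differed by 0.11 and 0.02. TMEM255A, a transmembrane protein, had 7.25, 7.35, 7.32 and 7.43 in NME1-E5A and 6.50, 6.64, 6.59 and 6.91 in NME1-wild-type, a difference of 0.68 (SE 0.107; limma adjusted p = 0.00507). ITGA9, TMEM255A and NRN1 kept their calls without each array in turn.

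HAS2, the synthase of the matrix polysaccharide hyaluronan, had 6.05, 6.25, 6.40 and 6.28 in NME1-E5A, against 5.39, 5.23, 4.97 and 5.35 in NME1-wild-type, a difference of 1.01 (limma adjusted p = 0.0205). The NME1-P96S arrays reached 6.02, just under the lowest NME1-E5A array. HAS2 was the only changed gene of 29 measured for extracellular matrix, where THBS1 and SPARC differed by -0.09 and 0.03. Its call ended without replicate 2, 3 or 4 of NME1-E5A or 2 or 3 of NME1-wild-type (0.92 to 1.07), and after quantile normalisation (limma adjusted p = 0.217).

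SERPINA3 and STC1 encode secreted proteins. SERPINA3, a protease inhibitor of the acute phase, had 9.15, 8.86, 9.08 and 9.09 in NME1-E5A and 8.37, 8.05, 8.26 and 8.42 in NME1-wild-type, a difference of 0.77 (limma adjusted p = 0.0195). STC1, a secreted glycoprotein hormone first known from calcium control in fish, had 8.04, 8.01, 8.09 and 8.15 in NME1-E5A and 7.33, 7.13, 7.27 and 7.49 in NME1-wild-type, a difference of 0.77 (limma adjusted p = 0.0243). SERPINA3 lost its call without replicate 1, 3 or 4 of NME1-E5A or 2 or 3 of NME1-wild-type (0.70 to 0.83), and STC1 without any single array but NME1-wild-type replicate 4 (0.71 to 0.83).

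B4GALT6, which makes lactosylceramide, BEND5, a BEN domain protein that represses transcription, and RNF122, a ubiquitin ligase, were the remaining single-gene increases. BEND5 had log2 levels of 6.54, 6.29, 6.17 and 6.23 in NME1-E5A, against 5.47, 5.57, 5.29 and 5.08 in NME1-wild-type, a difference of 0.95 (SE 0.134; limma adjusted p = 0.00155). B4GALT6 had 6.92, 6.84, 7.02 and 6.68 in NME1-E5A and 5.80, 5.78, 6.06 and 6.17 in NME1-wild-type, a difference of 0.92 (limma adjusted p = 0.00803). RNF122 differed by 0.65 (limma adjusted p = 0.0211), with arrays from 6.56 to 6.66 in NME1-E5A and from 5.75 to 6.21 in NME1-wild-type. BEND5 kept its call without each array, B4GALT6 lost it without NME1-E5A replicate 3 (0.86 to 0.99) and after quantile normalisation (limma adjusted p = 0.0796), and RNF122 lost it without any single array but NME1-wild-type replicate 2 (0.58 to 0.73) and after quantile normalisation (limma adjusted p = 0.0769).

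The 38 rows were then set beside all other arrays, as a description without a test, since they were chosen for the difference between NME1-E5A and NME1-wild-type and those arrays are among the ones compared. In 18 of the 19 higher rows the lowest NME1-E5A array lay above all 16 arrays of the other lines, which held for 0.353% of all rows. The exception was a row of SLC2A3 and SLC2A14. Of the 19 lower rows, 4 had every NME1-E5A array below those 16 arrays (0.102% of all rows), and 7 had every NME1-wild-type array above the 16 arrays of the lines other than itself (0.0481% of all rows), 4 of them rows of XAGE1. NETO2 belonged to both groups. VIPR1 and MMP3 were among the rows set apart in NME1-E5A, and LRP1B, TRIML2 and the XAGE1 rows among those set apart in NME1-wild-type.

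The Parent mean was nearer to that of NME1-wild-type in all 19 higher rows, in 10 of the lower rows, and nearer to that of NME1-E5A in the other 9 lower rows. By the same rule for a changed row, 40 rows changed in NME1-E5A against Parent (0.214%) and 6 in NME1-wild-type against Parent (0.0321%). These comparisons share the Parent arrays, and the difference between the counts was not tested.

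**Figure D5:**
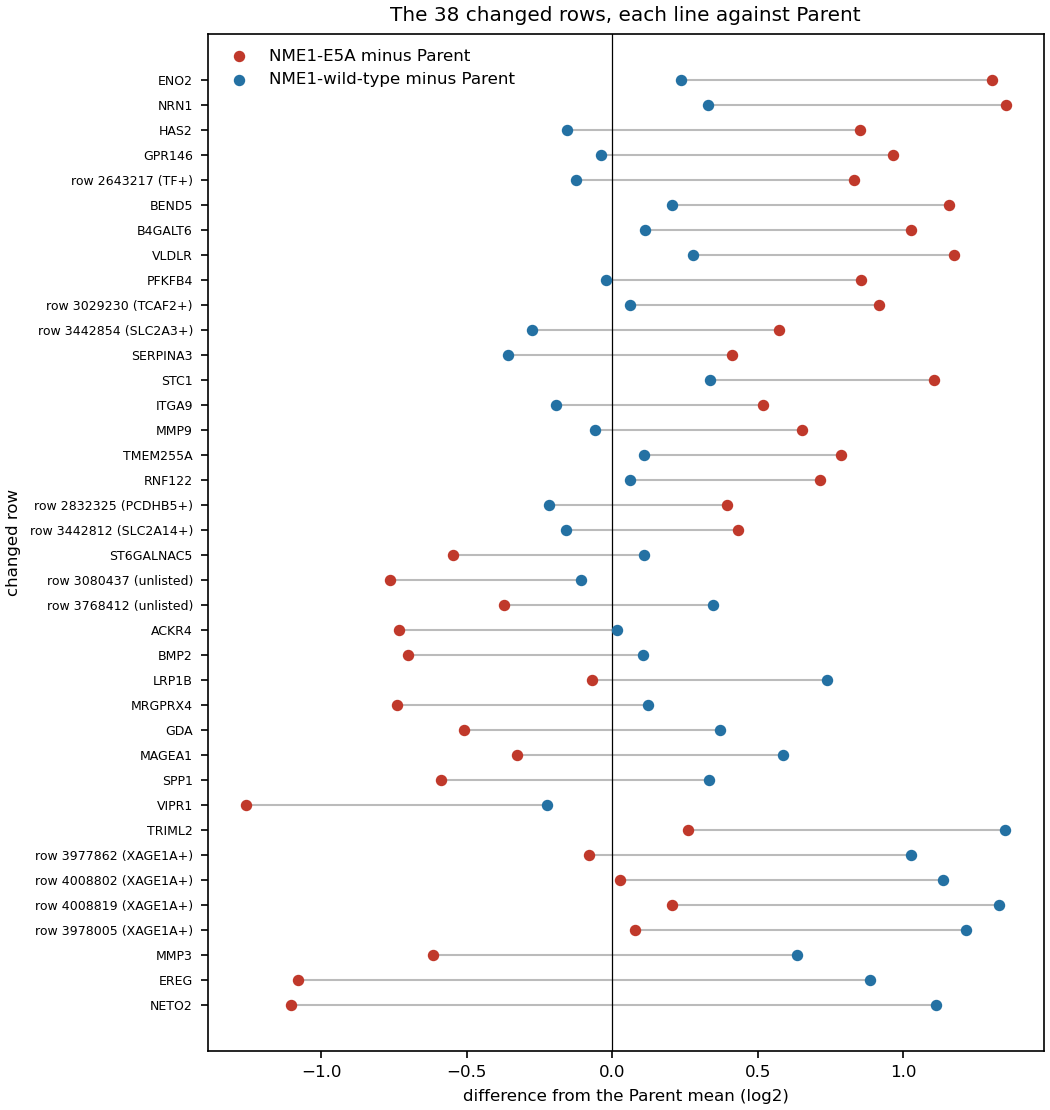
The 38 changed rows with the log2 difference from the Parent mean (x axis) in NME1-E5A (red) and in NME1-wild-type (blue), joined by a line; rows with several genes are marked + after their first symbol. In the higher rows the blue points lie from -0.36 to 0.34 and the red ones from 0.39 to 1.35, while in TRIML2 and the XAGE1 rows the red points lie near 0 and the blue ones above 1.

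The further gene groups gave few or no changed members, and their medians lay near that of all rows. VLDLR rose and LRP1B fell among 11 measured genes of the low-density lipoprotein receptor family, where LRP12 and LRPAP1 differed by 0.16 and 0.14. VLDLR was also the only changed gene of 21 for amino acid and unfolded protein stress, with HSPA5 and SLC7A5 at 0.01 and -0.11. ACKR4 was the only changed gene of 25 cytokines, chemokines and receptors, in which IL1B and CCL2 differed by -0.45 (limma adjusted p = 0.864) and -0.43 (limma adjusted p = 0.532).

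For functions tied to NME1 itself, the counts of changed genes were 0 of 9 for the SET complex and NME1 partners, 0 of 27 for nucleotide synthesis, 0 of 21 for excision and break repair and 0 of 5 for adenylate kinases. SET and STRAP differed by -0.16 and -0.09, RRM2 and UCK2 by -0.06 and -0.27, and XRCC6 and DDB1 by 0.09 and 0.10. AK1 and AK5 both differed by -0.31. AK4, a mitochondrial adenylate kinase named after its values were seen, had a mean of 8.90 ± 0.0885 in NME1-E5A and 8.01 ± 0.0732 in NME1-wild-type (SD, n = 4 each), a difference of 0.89 that did not pass (limma adjusted p = 0.0976). Metastasis suppressors other than NME1 had 0 changed genes of 14, with NDRG1 at 0.49 and TIMP3 at -0.13.

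Cell cycle genes (0 of 28 changed, with CCND1 at -0.04 and CCNB1 at 0.01) and oxidative phosphorylation (0 of 16, with ATP5F1A at -0.06 and UQCRC2 at 0.08) had medians of -0.04 and -0.05. Genes of the melanocyte lineage (0 of 15, SOX10 at -0.01 and S100B at 0.11) and of the undifferentiated, invasive melanoma state (0 of 20, THBS1 at -0.09 and VIM at 0.08) had medians of -0.01 and 0.02. TYRP1, a pigmentation gene named after its values were seen, differed by -0.60. It did not pass here but passed in 3 of the alternative settings. Interferon-stimulated genes, class II and class I antigen presentation, MAPK output, sterol synthesis, NRF2 targets, glycogen and pentose phosphate metabolism, cadherins, Wnt and hedgehog components, semaphorins, tetraspanins and retinoic acid signalling gave 0 changed genes each, with medians from -0.15 for the NRF2 targets to 0.15 for the glycogen group. These counts stand beside 0.203% of all rows called.

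Markers were read to check the cell type. The 8 measured melanoma lineage markers had a mean log2 level per array of 7.14 to 7.21 in NME1-E5A and 7.04 to 7.21 in NME1-wild-type. Leukocyte markers stood at 5.12 to 5.30 in NME1-E5A and 5.00 to 5.34 in NME1-wild-type, and fibroblast markers at 5.53 to 5.76 in NME1-E5A and 5.55 to 5.90 in NME1-wild-type. Endothelial markers stood at 4.70 to 4.82 in NME1-E5A and 4.71 to 4.89 in NME1-wild-type, and keratinocyte and epithelial markers at 5.33 to 5.47 in NME1-E5A and 5.27 to 5.56 in NME1-wild-type. SOX10 and S100B, which mark cells of neural crest descent, differed by -0.01 and 0.11, and PMEL and MLANA, pigment cell antigens named after their values were seen, by 0.10 and -0.09. The ranges of both lines overlapped in all 5 groups, and 0 markers changed. A log2 array level has no true zero, so a low value is not absence, and in bulk samples fewer cells of a type and less RNA per cell cannot be told apart.

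Within the 2 sets of arrays that the residual pattern separated, only the sizes of the differences could vary for the leading genes. Their directions were fixed in advance, since the arrays of NME1-E5A and NME1-wild-type did not overlap in these genes. In the set of 7 arrays and in the set of 13, NETO2 differed by -2.08 and -2.37, EREG by -2.11 and -1.78, MMP3 by -1.26 and -1.16, TRIML2 by -1.20 and -0.93 and VIPR1 by -0.93 and -1.13. ENO2 differed by 1.20 and 0.95, NRN1 by 1.13 and 1.09 and VLDLR by 0.88 and 0.87. The median of the hypoxia list was 0.51 and 0.38, and that of the glycolysis list 0.34 and 0.15. The set of 7 holds a single NME1-E5A array, whose spread was taken from the other lines, and limma called 2 rows within it and 7 within the set of 13.

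Across every single array left out, 12 of the 27 single genes kept their calls, 6 higher (ENO2, NRN1, BEND5, VLDLR, ITGA9 and TMEM255A) and 6 lower (NETO2, EREG, MMP3, TRIML2, VIPR1 and GDA). None of the 27 could change direction when an array was left out, since the arrays of NME1-E5A and NME1-wild-type did not overlap in any of them.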

How the data were processed

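The deposited values are log2 expression levels; the authors used RMA to normalise them, per the series' design text and the labels, and the submitters' processing notes also name limma. No source used here gave software versions, the genome build or array dates. All 20 arrays were mapped by title, and 0 value columns were left unmapped. Rows were named from the platform annotation, with 14735 rows carrying 1 symbol, 2873 several and 1100 not listed; a RefSeq gene list (GRCh38.p14) updated 0 symbols. Where a gene had several rows, the row of highest mean stood for it in the lists.

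A limma model (version 3.58.1, R 4.3.3) with 5 line means was fitted to the 20 arrays (lmFit and eBayes), so that the 5 lines shared 1 estimate of spread (15 residual degrees of freedom). The difference is NME1-E5A minus NME1-wild-type, tests were two-sided, and p-values were adjusted over all 18708 rows. NME rows were also compared with exact permutation tests. The script was checked on simulated data. The number of arrays limits the precision.

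The rows compared, the gene lists and the tests were chosen with earlier results of these data known. Names were drawn from the NME family, up to 15 changed genes in each direction, and the lists' changed members and 2 further members a list, those of highest mean among the unchanged, though not every list has members named; other names are said to be chosen after their values were seen, as were the identifiers of rows with several genes. Lists are described by counts and medians, without a set test. Alternatives covered the arrays fitted, a replicate block, normalisation, array spread and weights, filters, thresholds and single arrays left out.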

Additional observations from a re-analysis of the deposited data

Results flagged for a closer look

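In 4 of the 78 groups of 4 arrays examined, 1 array lay far from the other 3 of its line by Dixon's test, and chance alone would give about 1 in 20 groups, a like number. ACKR4 in NME1-E5A replicate 1 stood at 4.50, with the other NME1-E5A arrays at 3.98 to 4.03. SPP1 in the same array stood at 5.87, with the others at 5.41 to 5.48. That array is the only one of NME1-E5A in the set of 7 arrays. In NME1-wild-type the arrays of that set, replicates 1 and 2, were also the higher ones for both genes. They stood at 5.07 and 5.11 against 4.71 and 4.63 for ACKR4, and at 6.73 and 6.95 against 6.02 and 6.22 for SPP1. Whether the set lies behind these values was not tested. The row annotated to TF and SRPRB stood at 7.41 in NME1-E5A replicate 4, with the others at 7.67 to 7.69. The unlisted row 3080437 stood at 7.08 in NME1-wild-type replicate 2, with the others at 6.70 to 6.74. In each of these rows both lines still did not overlap.

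NETO2 went in opposite directions against Parent, lower on every NME1-E5A array and higher on every NME1-wild-type array, and the tested difference between these lines was -2.22 (limma adjusted p = 9.56e-10).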

How the results depend on the processing

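Of the 27 single genes, 0 changed direction under the alternatives. Where arrays were only left out or weighted, this was fixed in advance, since the arrays of both lines did not overlap in these genes. Changes of threshold, eBayes option or rows fitted, and the replicate blocks, leave the difference itself as it is. They could not reverse a direction either. Only quantile normalisation, median centring, the interquartile range covariate and the array set as a block could have done so. NETO2 and EREG passed in each alternative that included their rows. The NME1 row did not pass in any. Calls ended for 6 of the 27 after quantile normalisation (HAS2, B4GALT6, RNF122, ACKR4, BMP2 and SPP1; 31 of the 38 rows shared), 4 after median centring (PFKFB4, STC1, ACKR4 and SPP1), 4 with only the 8 arrays (ST6GALNAC5, ACKR4, MRGPRX4 and SPP1), 4 with an eBayes trend (MMP9, ACKR4, MAGEA1 and SPP1), 1 with robust eBayes (MAGEA1), 3 with array set as a block (PFKFB4, MMP9 and MAGEA1), 2 with the replicate block over 20 arrays (MMP9 and SPP1) and 3 with it over 8 (RNF122, ST6GALNAC5 and SPP1). The 38 changed rows (19 higher, 19 lower) became 59 (36 higher) with the interquartile range as a covariate, 77 (46 higher, 31 lower) with array weights, 25 (11 lower) among rows above the median level, 2 (0 higher, 2 lower) when treat tested against a 1.5-fold difference and 13 (4 higher, 9 lower) at a fold of at least 2. Leaving out single arrays gave 16 to 35, with 8 to 19 higher and 8 to 16 lower. With only the 8 arrays there were 29 higher rows, and without the 3 narrowest arrays 32. Same-numbered arrays of NME1-E5A and NME1-wild-type did not all deviate together (r = 0.578, -0.172, 0.327 and 0.325 for numbers 1 to 4). Replicate 1 of every line nevertheless fell in the set of 7 arrays. Whether the numbers pair the arrays cannot be told from these values, so fits with a replicate block are given beside those without. A replicate block over 20 arrays gave 40 changed rows, and over the 8 arrays 57, with 31 higher. Within the sets of 7 and 13 arrays, chosen after seeing the data, 2 (0 higher, 2 lower) and 7 rows (2 higher, 5 lower) changed, with fewer arrays behind each difference. Hypoxia genes that were higher, 1 of 26 above, numbered 3 with the 8 arrays, 3 and 3 with the replicate block over 20 and 8 arrays, 5 after quantile normalisation, 7 with the covariate, 9 with weights, 4 without the narrowest arrays, 3 with array set as a block and 0 within either set, under treat or at a fold of 2. Glycolysis genes, 2 above, numbered 3 after quantile normalisation, 4 with the replicate block over 8 arrays, the covariate, weights or without the narrowest arrays, 1 at a fold of 2, 0 under treat, 1 to 2 without single arrays, and 0 and 1 within the sets of 7 and 13 arrays. Except where fewer arrays or rows were fitted or the threshold was raised, the cause was not tested. The number of arrays, and 1 line for each construct, limit what these values can show.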
